A study of Rattus norvegicus with 2 samples.

Results

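Described here are the Hox cluster genes, the 26 rows of the authors' deposited result table, among 17327, whose symbol is Hox followed by a cluster letter from a to d and a number. RefSeq's rat annotation (GRCr8) holds 39 such symbols. The other 13 are not analysed here. The members number 5 in Hox A, on rat chromosome 4, and 7 each in Hox B, C and D, on chromosomes 10, 7 and 3. RefSeq also gives 3 of the symbols as older names of another Hox gene (Hoxa9 of Hoxa7, Hoxa11 of Hoxa2 and Hoxc8 of Hoxc9), and Hoxa10 as an older name of Hoxa11, so the identity of these rows rests on the annotation the authors used.

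Hox genes encode transcription factors that share a DNA-binding homeodomain and give cells of the embryo their position along the head-to-tail axis. In mammals they lie in 4 clusters, A to D, on different chromosomes, and genes of the same paralogue number in different clusters descend from one ancestral gene. Within a cluster the low numbers stand at the 3′ end and are used early and anteriorly, and the high numbers stand at the 5′ end and are used late and posteriorly. In the female reproductive tract of the mouse, posterior Hox A genes mark successive segments, with Hoxa11 in the uterus and Hoxa13 in the cervix and upper vagina, and adult uterine tissue keeps expressing them.

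The cells were rat myometrial progenitor cells, cultured precursors of uterine smooth muscle, at passages 1 to 3; the design text calls them murine. One group was labelled DES-exposed and the other VEH-exposed, and the exposure fell in development. In work on endocrine disruptors these letters usually stand for diethylstilbestrol, a synthetic estrogen, and its vehicle. Each group was 1 RNA sequencing library of cells pooled from 5 animals. The sources used here do not state strain, age, dose or time of exposure. The comparison asks how expression differs between exposed and unexposed cells. Which group forms the numerator of the deposited fold change is not stated. The libraries are therefore named numerator and denominator library, and no direction here is a direction of exposure. With 1 library per group there is no replicate check, no test was run, and intervals cover counting error only.

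The numerator library held 106599579 reads in the listed genes and the denominator library 104793348. All 10 smooth muscle markers listed were read, with summed reads of 1711102 in the numerator and 1013811 in the denominator library. Of these, 2 (Tagln and Actg2) were at least 2-fold higher in the numerator library, 1 (Mylk, a myosin kinase, with 19238 and 76573 reads) was lower and 7 lay within 2-fold. The share of smooth muscle markers beyond 2-fold was thus 30%. It was 26.7% over all 11212 genes with a mean of at least 20, with 13.9% higher and 12.8% lower. The counts that follow stand beside these same shares. Markers of other cells differed between the libraries. Pericyte markers (7 listed, all 7 read; 5 lower) summed to 82118 and 391525 reads in the numerator and the denominator library, endothelial markers (8 listed, Kdr and Emcn at 0 in both; 4 lower, 1 higher) to 673 and 8114, and blood and macrophage markers (7 listed, Ptprc at 0 in both; 3 lower, 2 higher) to 1751 and 6569. Epithelial markers (6 listed, Cdh1 at 0 in both, 1 higher, 1 lower) summed to 3042 and 1557 reads, neural markers (5 listed, Sox10 at 0 in both, 2 higher) to 97304 and 36548, and endometrial stromal markers (6 listed, Hoxa11 among them, 5 lower) to 601983 and 1037547. Of 4 mesothelial markers 1 was higher and 2 lower, and their sums of 10443 and 7271 reads rest mostly on Upk1b, with 8673 and 362. Of 11 mesenchymal progenitor markers (Ly6al at 0 in both) 4 were higher and 4 lower, with nearly equal sums of 732482 and 718616 reads. Several of these sums lean on single genes. Abcc9 had 38 and 168646 of the pericyte reads, Was 0 and 4194 of the blood and macrophage reads, and Ncam1 90877 and 32689 of the neural reads. Vim, within 2-fold, had 586278 and 987473 of the endometrial stromal reads. The pericyte marker Cspg4 lay within 2-fold (31833 and 28088), and Rgs5, under the minimum mean, went the other way (22 and 0). Vim, Cspg4 and Rgs5 are named after their values were seen. The part of other cell types in the Hox differences was not tested. In bulk RNA, fewer cells of a type and less RNA per cell cannot be told apart.

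Most Hox genes with a mean of at least 20 reads differed at least 2-fold between the libraries, and more were lower than higher in the numerator library. Of the 26 members, 24 had reads. Hoxb13 and Hoxd1 are listed at 0, which allows up to 3 reads in a library. The minimum mean of 20 reads, after division by each library's size factor, was passed by 22. Of these 22, 12 were lower in the numerator library by 2-fold or more, 5 were higher by as much and 5 lay within 2-fold. The 17 beyond 2-fold are 77.3% of those that passed, beside 26.7% of all 11212 genes with this mean (13.9% higher and 12.8% lower). Few-read genes pass 2-fold more often: among the 6399 genes with means from 20 up to that of the second most read Hox gene, 34.6% did, 17.4% higher and 17.2% lower. The median log2 ratio of the 22 genes, numerator over denominator with 1 normalised read added to each, was -1.17, against 0.01 for all genes. In all, Hox genes took 18028 reads of the numerator library, against 26624 of the denominator library. The 3 most read genes held 64.6% and 64.9% of these. Of the 3, Hoxa11 (4802 and 11030) and Hoxd10 (2795 and 3838) had fewer reads in the numerator library. The third, Hoxd13 (4054 and 2415), had more, as did Hoxa13 (2922 and 698).

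**Figure D1:**
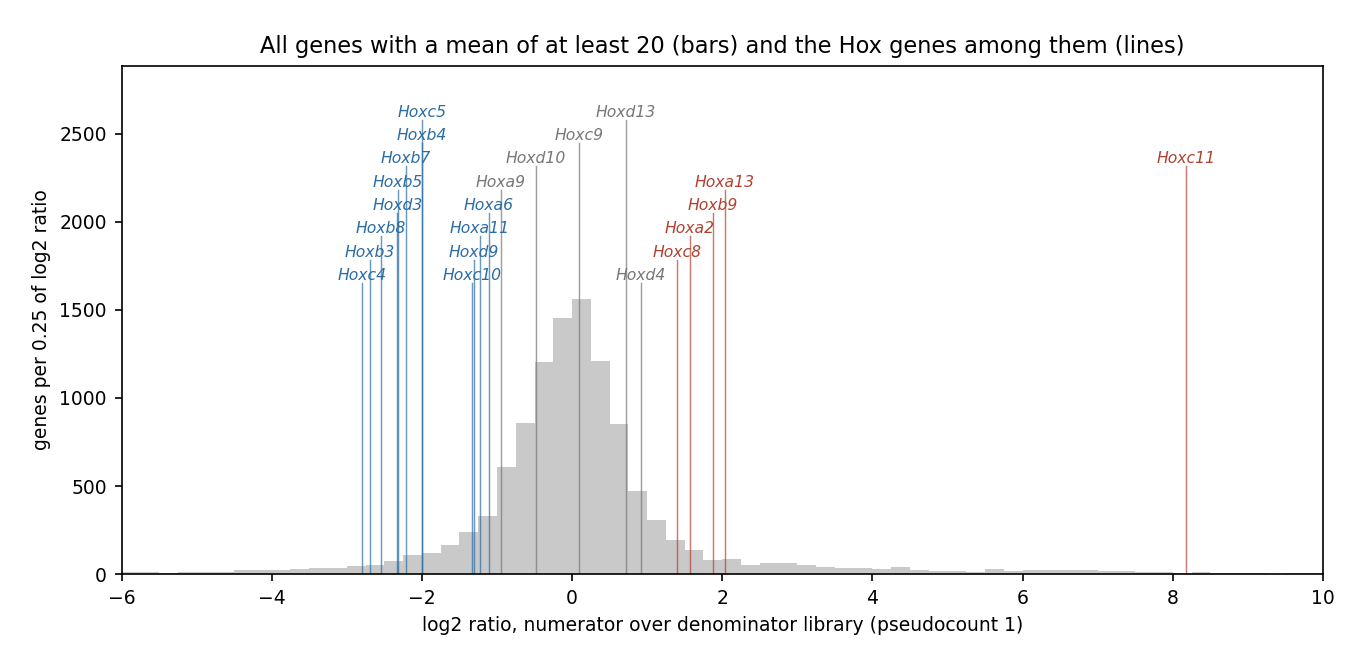
Log2 ratio of normalised reads, numerator over denominator library, for all 11212 genes with a mean of at least 20 (grey bars, genes per 0.25 of log2 ratio) and for the 22 Hox genes among them (lines; red, at least 2-fold higher; blue, at least 2-fold lower; grey, within 2-fold). The Hox lines stand mostly on the left shoulder, at 12 blue against 5 red, with Hoxc11 far to the right; 52 genes below -6 and 30 at or above 10 lie outside the axis.

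Set out by position, lower ratios were more frequent among paralogue numbers 1 to 8 than among 9 to 13. Of the 11 genes with paralogue numbers 3 to 8, 9 were lower, 1 (Hoxc8) was higher and 1 (Hoxd4) lay within 2-fold, and their median log2 ratio was -2.21. The span from 3 to 8 was chosen with the values known. By the usual division, the 6 anterior genes that passed (numbers 1 to 4) had 4 lower and 1 higher, with a median of -2.17, and the 6 central genes (5 to 8) had 5 lower and 1 higher, with a median of -2.10. The 10 posterior genes (9 to 13) split into 3 lower, 3 higher and 4 within 2-fold, with a median of -0.20. Among the genes that passed the minimum, the one nearest the 5′ end had the highest ratio of its cluster in Hox A (Hoxa13), Hox B (Hoxb9) and Hox C (Hoxc11), but not in Hox D, where Hoxd4 was higher than Hoxd13.

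**Figure D2:**
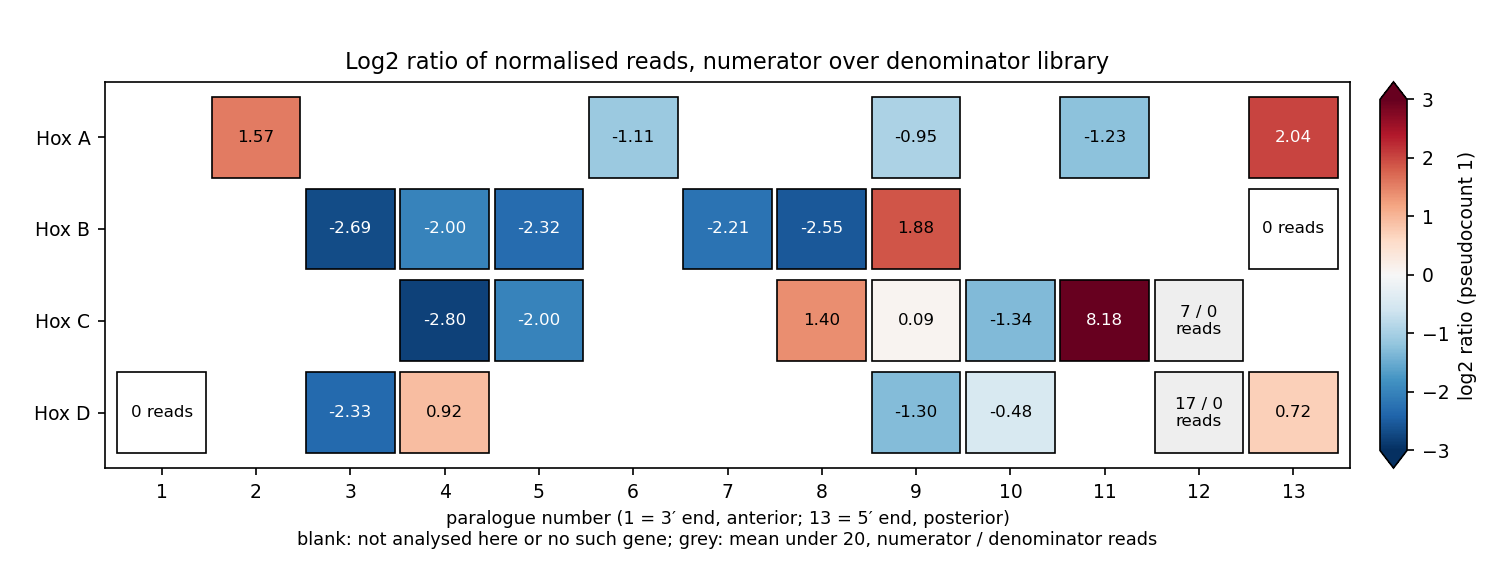
Log2 ratio of each Hox gene, numerator over denominator library, by cluster (rows) and paralogue number (columns); colour gives the log2 ratio, cut at -3 and 3. The 5 measured genes from number 3 to 8 of Hox B and numbers 4 and 5 of Hox C are blue, and red cells include Hoxa13, Hoxb9 and Hoxc11; grey cells give numerator and denominator reads of genes that did not reach the minimum.

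Hox A, the cluster best known from the uterus, differed in both directions. Hoxa13, a regulator of the hindmost body, limb tips and lower genital tract, had 2922 reads in the numerator against 698 in the denominator library. It was 4.11-fold higher (95% counting interval 3.78 to 4.47). Hoxa11, needed in the mouse for uterine stroma and implantation, had 4802 and 11030 reads, chosen from 3 pairs that meet its deposited mean. It was 2.34-fold lower (interval 2.26 to 2.42). The 2 genes stand next to each other in the cluster and lay beyond 2-fold in opposite directions.

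Hoxa6, a central gene, had 116 and 247 reads in the numerator and the denominator library and was 2.17-fold lower (interval 1.73 to 2.73). Hoxa9, expressed in the mouse oviduct and also in blood progenitors, had 97 and 185 reads. Its ratio of 1.94-fold lower stayed just within the limit, with an interval of 1.51 to 2.51 that reaches past it. Hoxa2, which patterns the hindbrain and second pharyngeal arch, had 144 and 47 reads and was 3.01-fold higher (interval 2.15 to 4.28). It was the most 3′ Hox A gene measured and went with Hoxa13, at the other end, rather than with the genes between them.

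The antisense transcript gene beside Hoxa11, listed as RGD1564419 and named Hoxa11-as by RefSeq, had 910 reads in the numerator and 1939 in the denominator library. It was 2.17-fold lower, near the ratio of Hoxa11. Whether reads were counted by strand is not given, so reads of the pair may not be told apart with certainty. In RefSeq the promoter windows of the 2 genes, each 300 bases long and on opposite strands, overlap by 274 bases. Promoters were matched for 13 of the 26 members. These are the 5 of Hox A, the 7 of Hox D (with Hoxd1 and Hoxd12, which did not pass the minimum) and Hoxc4. No Hox B gene was matched, nor was Hoxc11, so the promoter results do not cover them. The 250 bases before the start of Hoxa13 (GRCr8 chr4:82691702-82691951, minus strand) and of Hoxa11 (chr4:82676802-82677051, minus strand) are shown from 5′ to 3′ because these neighbours differed in opposite directions, with CG dinucleotides, the target of DNA methylation, in capitals. Hoxa13 was chosen for display after its value was seen.
Hoxa13: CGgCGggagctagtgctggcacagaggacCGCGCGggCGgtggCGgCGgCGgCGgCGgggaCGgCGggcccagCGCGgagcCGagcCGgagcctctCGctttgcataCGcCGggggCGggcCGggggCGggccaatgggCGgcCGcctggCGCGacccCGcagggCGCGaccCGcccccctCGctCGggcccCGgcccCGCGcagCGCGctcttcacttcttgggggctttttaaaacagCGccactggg
Hoxa11: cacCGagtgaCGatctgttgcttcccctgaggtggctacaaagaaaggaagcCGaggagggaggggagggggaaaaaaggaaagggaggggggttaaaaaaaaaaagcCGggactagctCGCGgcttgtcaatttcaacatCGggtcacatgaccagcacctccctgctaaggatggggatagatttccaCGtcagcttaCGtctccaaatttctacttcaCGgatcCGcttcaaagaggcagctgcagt
The window of Hoxa13 held 39 CG dinucleotides and that of Hoxa11 held 11. Over the 13 members the median was 18 and the range 3 to 39, beside a median of 5 over all 33469 rat promoters of this length.

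**Figure D3:**
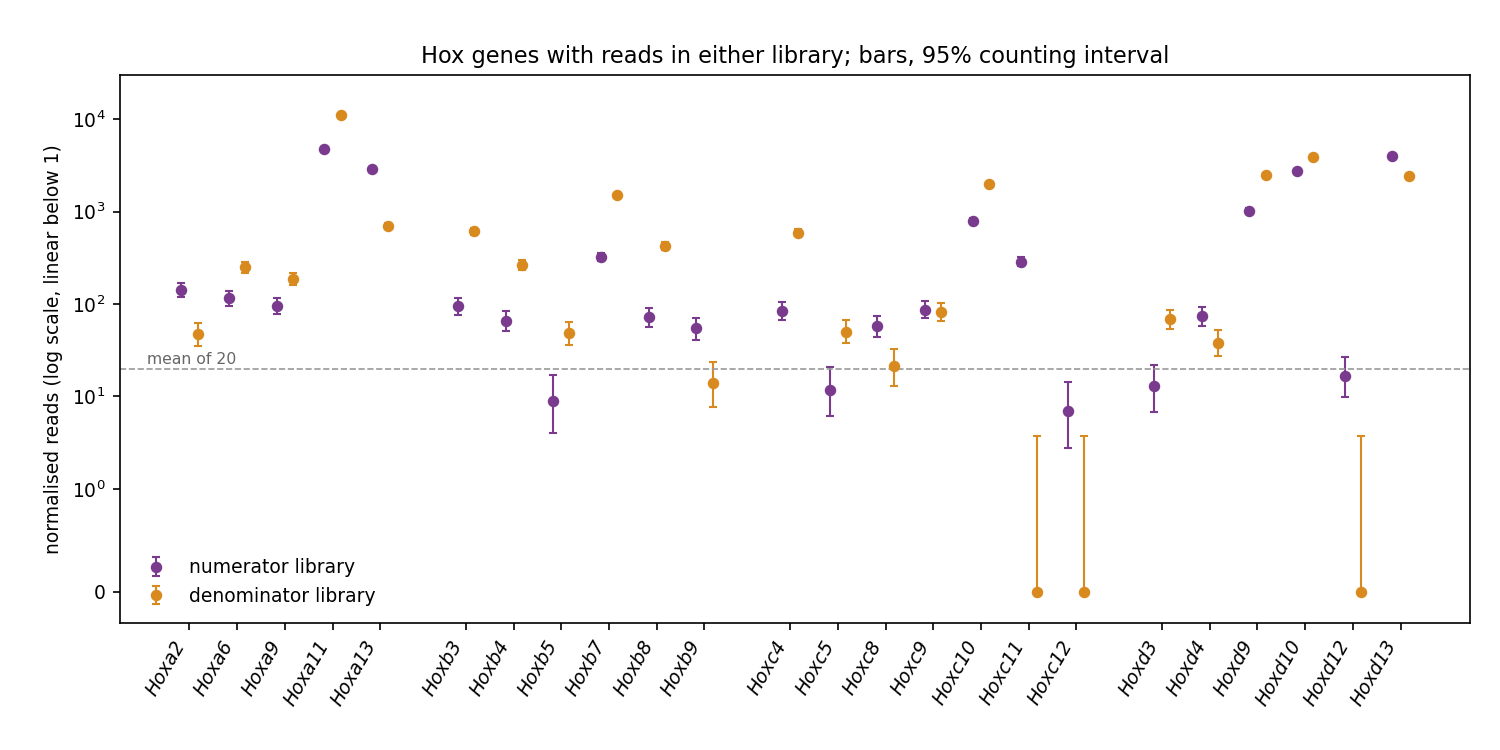
Normalised reads (log scale, linear below 1) of the 24 Hox genes with reads in the numerator library (purple, left of each pair) and the denominator library (orange), with exact Poisson 95% counting intervals. Orange points stand above purple ones through Hox B up to Hoxb8, and Hoxc11, Hoxc12 and Hoxd12 have 0 reads in the denominator library.

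In Hox B the 5 measured genes from number 3 to number 8 were all lower in the numerator library, by 4.06-fold to 6.51-fold, and summed to 569 reads in the numerator and 2826 in the denominator library. Hoxb7 had 326 and 1484 reads and was 4.64-fold lower (interval 4.11 to 5.24). Hoxb3, an anterior gene of hindbrain and neck, had 95 and 607 reads and was 6.51-fold lower (interval 5.23 to 8.16). Hoxb8, also known from blood progenitors and microglia of the mouse, had 73 and 424 reads and was 5.91-fold lower (interval 4.60 to 7.69).

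Hoxb4, which expands blood stem cells when overexpressed, had 66 reads in the numerator and 263 in the denominator library and was 4.06-fold lower (interval 3.09 to 5.40). Hoxb5 rested on few reads, 9 and 48, and its interval ran from 2.64-fold to 12.6-fold lower. The sixth gene, Hoxb9, a posterior member that patterns the rib cage, went the other way. It had 55 and 14 reads and was 3.86-fold higher (interval 2.12 to 7.51). Hox B reads were 3.46% of the numerator library's Hox reads (exact Clopper-Pearson interval 3.20 to 3.74), against 10.7% of the denominator library's (10.3 to 11.04).

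Hox C held both the highest and the lowest ratio among the members. Hoxc11, a posterior gene of the hindlimb, had 291 reads in the numerator library, against 0 in the denominator. Against a floor of 3 reads in the denominator library it was 95.3-fold higher, and its 95% counting interval starts at 77.0-fold. The next gene towards the 5′ end, Hoxc12, did not reach the minimum mean, with 7 reads against 0 (interval from 1.42-fold higher). Hoxc4, at the other end of the cluster, had 85 and 587 reads, a ratio 7.03-fold lower (interval 5.59 to 8.94).

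Between these ends the sign changed more than once. Hoxc5, beside Hoxc4, had 12 reads in the numerator and 50 in the denominator library and was 4.24-fold lower (interval 2.23 to 8.75). Hoxc8, which patterns the lower thorax, had 58 and 21 reads and was 2.71-fold higher (interval 1.62 to 4.71). Hoxc9, a gene of thoracic motor neurons, had 88 and 81 reads, a ratio of 1.07 whose interval, 0.78 to 1.46, holds 1. Hoxc10, a lumbar and hindlimb gene, had 801 and 1987 reads and was 2.53-fold lower (interval 2.33 to 2.75).

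Hox D had the smallest share beyond 2-fold, 2 of 5. Hoxd13, a regulator of digits and the urogenital end of the body, had 4054 reads in the numerator and 2415 in the denominator library, 1.65-fold higher (interval 1.57 to 1.73) and within the limit. Hoxd10, a gene of lumbar motor neurons and hindlimb, had 2795 and 3838 reads, 1.40-fold lower and also within it. Hoxd9, its 3′ neighbour, had 1028 and 2492 reads and was 2.47-fold lower (interval 2.29 to 2.66). Hoxd12 had 17 reads in the numerator and 0 in the denominator library, but fell short of the minimum mean. Its interval starts at 4.05-fold higher.

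The 3′ genes of Hox D had few reads. Hoxd4 had 74 reads in the numerator and 38 in the denominator library, 1.91-fold higher (interval 1.28 to 2.91) and within the limit. Hoxd3 had 13 and 68 reads and was 5.33-fold lower (interval 2.92 to 10.5). These neighbours lay on opposite sides of 1.
The promoters of Hoxd9 (GRCr8 chr3:80007756-80008005, plus strand) and Hoxc4 (chr7:136048809-136049058, plus strand) are shown as examples of the lower genes, again with CG in capitals; Hoxd9 and Hoxa11 belong to paralogue groups called in opposite directions, and Hoxc4 was chosen after its value was seen.
Hoxd9: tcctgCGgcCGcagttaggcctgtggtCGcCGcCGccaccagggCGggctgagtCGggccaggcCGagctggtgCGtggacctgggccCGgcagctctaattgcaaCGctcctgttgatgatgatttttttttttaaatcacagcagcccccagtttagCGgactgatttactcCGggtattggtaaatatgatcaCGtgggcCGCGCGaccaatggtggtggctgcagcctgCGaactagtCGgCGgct
Hoxc4: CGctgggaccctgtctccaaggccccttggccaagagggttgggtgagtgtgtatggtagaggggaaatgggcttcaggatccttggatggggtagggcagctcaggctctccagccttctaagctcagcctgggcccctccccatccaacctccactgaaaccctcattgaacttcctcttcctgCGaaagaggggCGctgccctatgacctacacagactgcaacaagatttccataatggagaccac
Hoxd9 held 20 CG dinucleotides and Hoxc4 held 3, so lower genes had many or few. On both strands, the estrogen response element (GGTCA, any 3 bases, TGACC), to which estrogen receptors bind as dimers, matched 0 of the 13 windows (0.0239% of all promoters) and the retinoic acid response element (AGGTCA on either side of any 5 bases) matched 0 (0.00896%). The caudal-type motif TTTATG matched 2, Hoxa9 and Hoxd4 (15.4%, beside 11.4% of all promoters), and the Hox and Pbx motif TGATNNAT matched 1, Hoxa2 (7.69%, beside 7.96%). The 2 response elements are so rare over all promoters that 0 matches in 13 windows would be usual for any genes. These counts of 0 therefore tell nothing about the Hox promoters. The motifs can overlap. A match is only a string of letters and shows no binding.

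Genes of one paralogue number often act alike in development, but here several differed between clusters. Of 8 paralogue groups with at least 2 measured members, 3 held members called in opposite directions. In group 8, Hoxc8 was higher and Hoxb8 lower, a gap of 3.95 in log2 ratio. In group 9, Hoxb9 was higher and Hoxd9 lower (gap 3.18), with Hoxa9 and Hoxc9 between them. The higher genes of these groups had few reads, 58 and 21 for Hoxc8 and 55 and 14 for Hoxb9. By the authors' deposited log2 fold changes, 0.73 and 0.89, both lay within 2-fold. In group 11, Hoxc11 was higher and Hoxa11 lower; the gap of 9.40 depends on the read added to each library, since Hoxc11 had 0 in the denominator library. Groups 3 and 5 were the most even. Hoxd3 and Hoxb3 lay 0.36 apart and Hoxc5 and Hoxb5 0.32 apart, all 4 lower in the numerator library.

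The genes around each cluster were compared with the Hox genes in it, using 20 genes with a mean of at least 20 on each side in RefSeq order. The flanks of Hox B had a median log2 ratio of -0.13, against -2.26 inside the cluster, and 3 of its 40 flanking genes were higher and 4 lower. The flanks of Hox D had a median of -0.02, against -0.48 inside. The flanks of Hox A had a median of -0.43, against -0.95 inside, and those of Hox C one of -0.81, against -0.62 inside. Hox C had only 7 such genes beyond its 3′ end. Of its 27 flanking genes 10 were lower and 1 higher. Over all genes with this mean, 12.8% were lower and 13.9% higher. Around Hox C the flanking median was thus the lower of the 2. The median inside rests on 6 genes whose log2 ratios range from -2.80 to 8.18. No test of these differences was run.

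The nearest genes on each side are given next by their log2 ratios. Evx1, a homeobox gene 5′ of Hoxa13, had 236 reads in the numerator library, against 0 in the denominator. Its interval starts at 62.3-fold higher. Hibadh, a valine-breakdown enzyme gene just beyond, had a log2 ratio of 0.37. On the 3′ side, Skap2, a signalling adaptor, had 0.03 and Snx10, an endosomal sorting protein, -0.51. Beside Hox B, Snx11 had 0.19 and Copz2 0.61 at the 3′ end, and Atp5g1 had 0.88 and Ube2z 0.50 at the 5′ end. Beside Hox C, Smug1 had -0.28 and Cbx5 -0.18 at the 3′ end, and Calcoco1 had -1.14 and Atp5g2 -0.89 at the 5′ end. Beside Hox D, Mtx2 had 0.23 and Hnrnpa3 -0.04 at the 3′ end, and Lnp had 0.39 and Atp5g3 0.33 at the 5′ end. Of the microRNA genes listed inside the clusters, Mir10a, Mir10b, Mir196a, Mir196c and Mir615 were at 0 in both libraries and Mir196b had 5 reads and 1 read in the numerator and the denominator library.

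**Figure D4:**
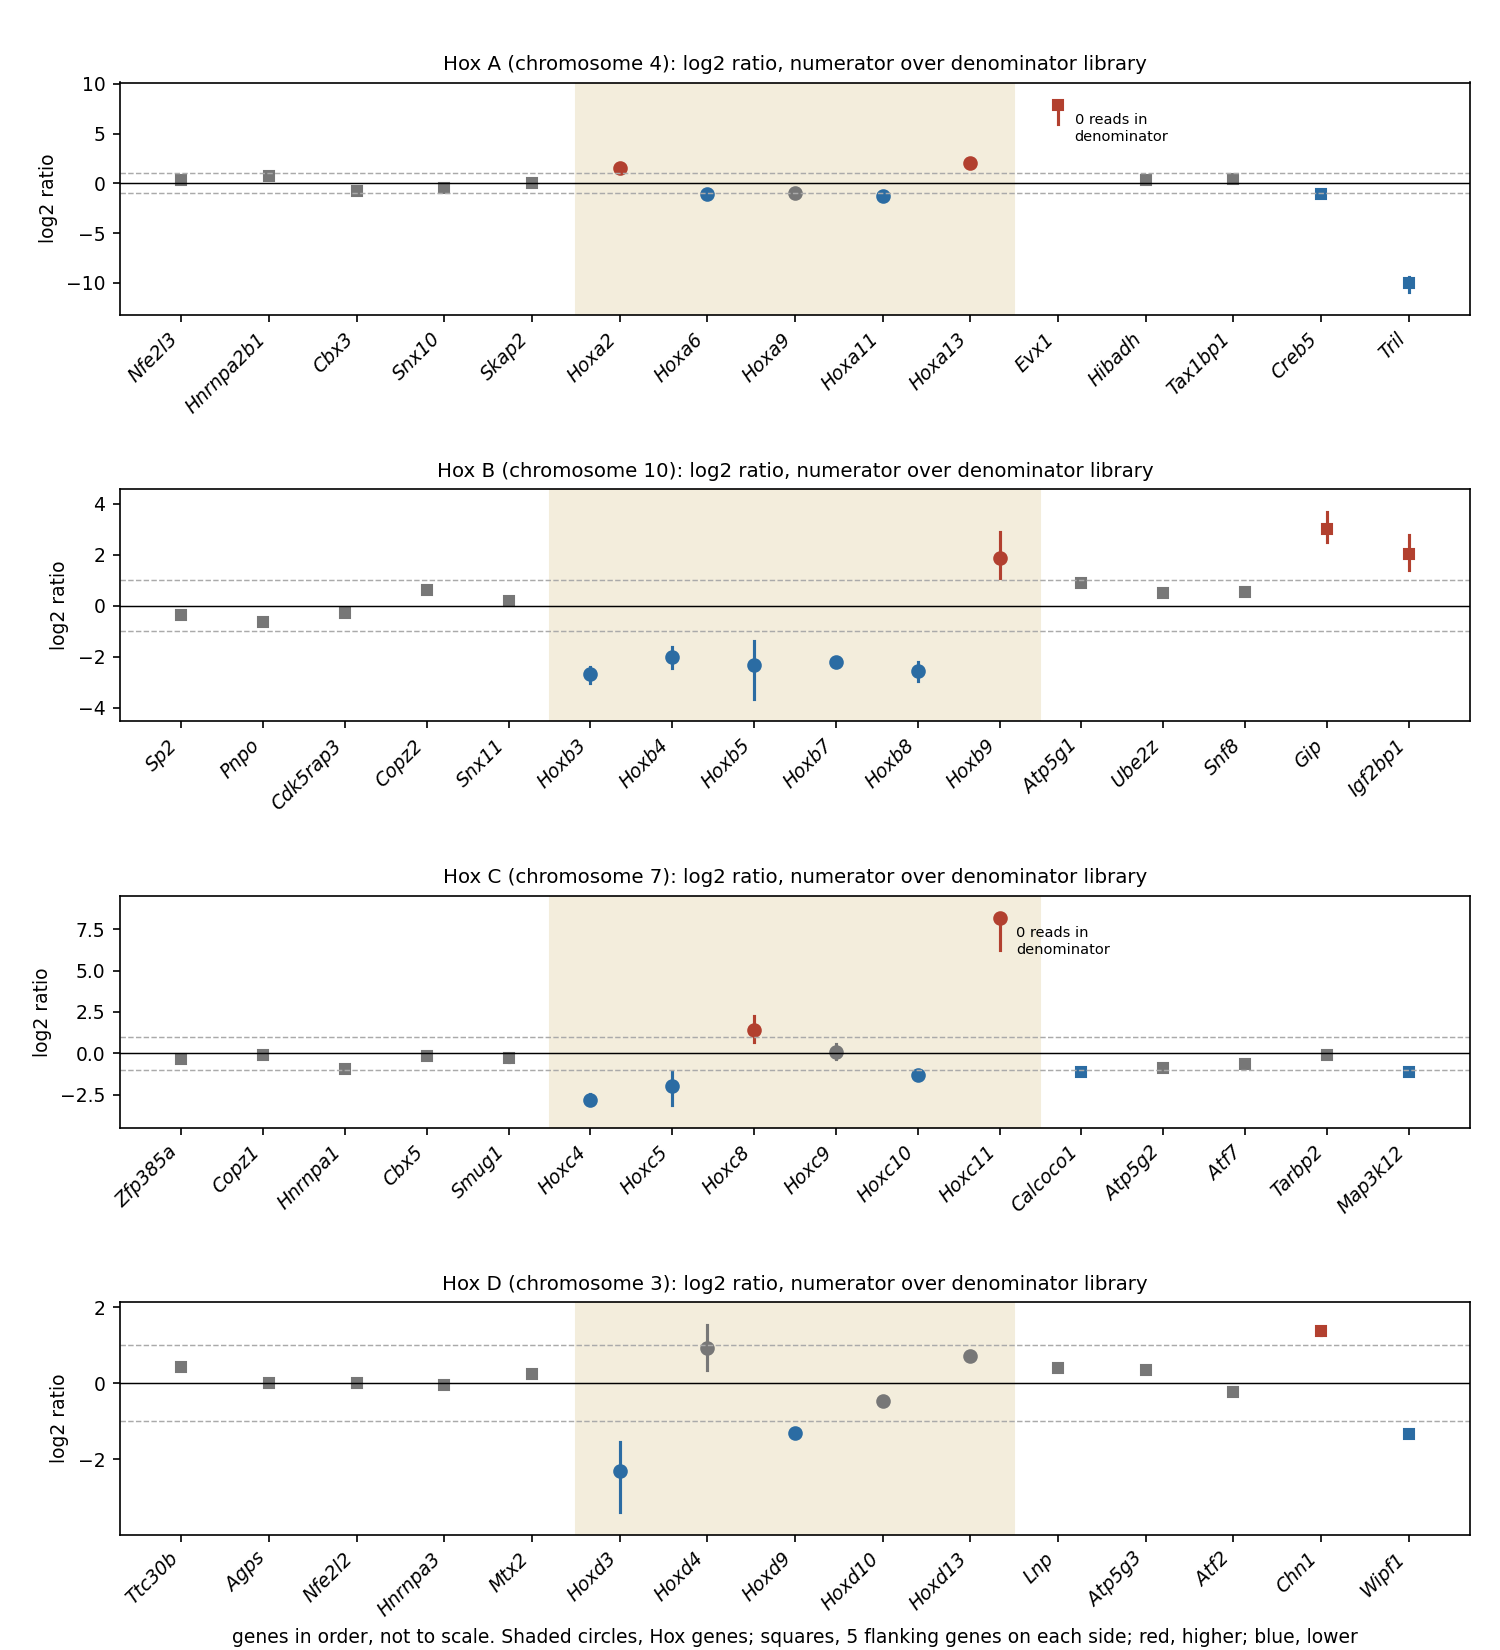
Log2 ratio, numerator over denominator library, of the Hox genes that passed the minimum (shaded circles) and of the 5 nearest such genes on each side (squares), cluster by cluster from the 3′ to the 5′ end; each panel has its own y axis, bars are 95% counting intervals, red is at least 2-fold higher and blue at least 2-fold lower. Hoxb3 to Hoxb8 lie at -2.0 or lower, below all 10 flanking genes drawn beside Hox B, and Evx1, next to Hoxa13, stands near the top of its panel.

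Hox proteins bind DNA together with cofactors of the TALE class, and 4 of 12 cofactor genes listed (33.3%) lay beyond 2-fold. Of the 12, 1 was at least 2-fold higher, 3 were lower and 8 lay within 2-fold (median log2 ratio -0.23). The 8 include Hmgb1, which is not of the TALE class. This list and those that follow stand beside the same 26.7% of all genes called and median of 0.01. Meis1, a main partner of Hox proteins that is named here after its values were seen, lay within 2-fold, with 8769 reads in the numerator and 8722 in the denominator library. The 4 beyond 2-fold were Pknox2, with 1301 and 18 reads (71.0-fold higher, interval 44.7 to 120), Pbx4, with 38 and 204 (5.47-fold lower), and the repressors Tgif2 and Tgif1, 3.11-fold and 2.25-fold lower.

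Polycomb proteins keep Hox genes silent through chromatin marks, and trithorax proteins keep them active. Of 25 Polycomb genes, 0 were at least 2-fold higher and 5 were lower, with a median log2 ratio of -0.55. The 5 are 20% of the list, beside 26.7% of all genes beyond 2-fold in either direction and 12.8% lower. Cbx7, a subunit that reads the repressive mark, had 210 reads in the numerator and 2012 in the denominator library and was 9.76-fold lower (interval 8.46 to 11.3). Cbx2, of the same family, had 132 and 675 reads and was 5.21-fold lower (interval 4.31 to 6.32). Pcgf2 was 2.66-fold and Phf19 2.04-fold lower; the fifth, Pcgf5 (log2 ratio -1.02), is named because it completes the count. Ezh2, the methyltransferase that writes the mark, was also named after its value was seen: it had 1530 and 2861 reads, a log2 ratio of -0.93 and within the limit. Of 9 trithorax and demethylase genes, 1 was lower (11.1%) and 0 higher (median -0.29). It was Kdm6b, which erases the repressive mark, with 3678 and 7954 reads, 2.20-fold lower. Dot1l (-0.97), Psip1 (-0.54) and Ash2l (-0.30) lay within 2-fold.

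Retinoic acid switches on Hox genes from the 3′ end in the embryo. Of 17 retinoid genes listed, 13 passed the minimum, 5 were higher and 1 was lower (median log2 ratio -0.06). Crabp2, which carries retinoic acid to its receptor, had 862 reads in the numerator and 55 in the denominator library, 15.4-fold higher (interval 11.7 to 20.6). The synthesis enzyme gene Aldh1a2 had 245 and 19 reads (12.7-fold higher) and its relative Aldh1a3 had 78 and 9 (8.51-fold higher). Crabp1, also higher, and the lower gene, Dhrs3, which turns retinal back to retinol, are named after their values were seen, at log2 ratios of 2.53 and -2.35. The receptor genes Rara, Rarb and Rarg, also named after their values were seen, lay within 2-fold.

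Of 9 further genes known to act on Hox clusters or to lie beside them, 7 passed the minimum, with 2 higher and 2 lower (median log2 ratio 0.02). Cdx2, a caudal-type activator of central and posterior Hox genes, had 40 reads in the numerator and 372 in the denominator library and was 9.47-fold lower (interval 6.82 to 13.5). Zfp703 was 4.24-fold lower. Egr2, an activator of Hoxa2 in the mouse hindbrain, had 7593 and 1783 reads and was 4.18-fold higher (interval 3.97 to 4.41). The other higher gene was Evx1.

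Genes that pattern the Müllerian duct and uterus split. Of 20 listed, 13 passed the minimum, 2 were higher and 5 lower (median log2 ratio -0.96). Emx2, a homeobox gene of the urogenital tract that HOXA10 represses in human endometrium, had 597 reads in the numerator and 4863 in the denominator library and was 8.29-fold lower (interval 7.62 to 9.05). Ptch1, the hedgehog receptor, was 5.00-fold lower and Nr2f2, a stromal orphan receptor, 3.77-fold lower. Esr1, estrogen receptor alpha, had 1824 and 165 reads and was 10.9-fold higher. Emx2 is also one of 15 genes reported as Hox targets in uterus or limb. Of these, 11 passed, 4 were higher and 2 lower (median 0.59). Fgf18, a growth factor gene, had 118 and 0 reads (interval from 30.9-fold higher). Epha7, a guidance receptor gene that HOXA13 activates in mouse limb, had 595 and 5 (117-fold higher, interval 49.8 to 361). Bmp4 had 63 and 2 (30.9-fold higher, interval 8.22 to 261). Shox2 had 134 and 1601 reads and was 12.2-fold lower.

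**Figure D5:**
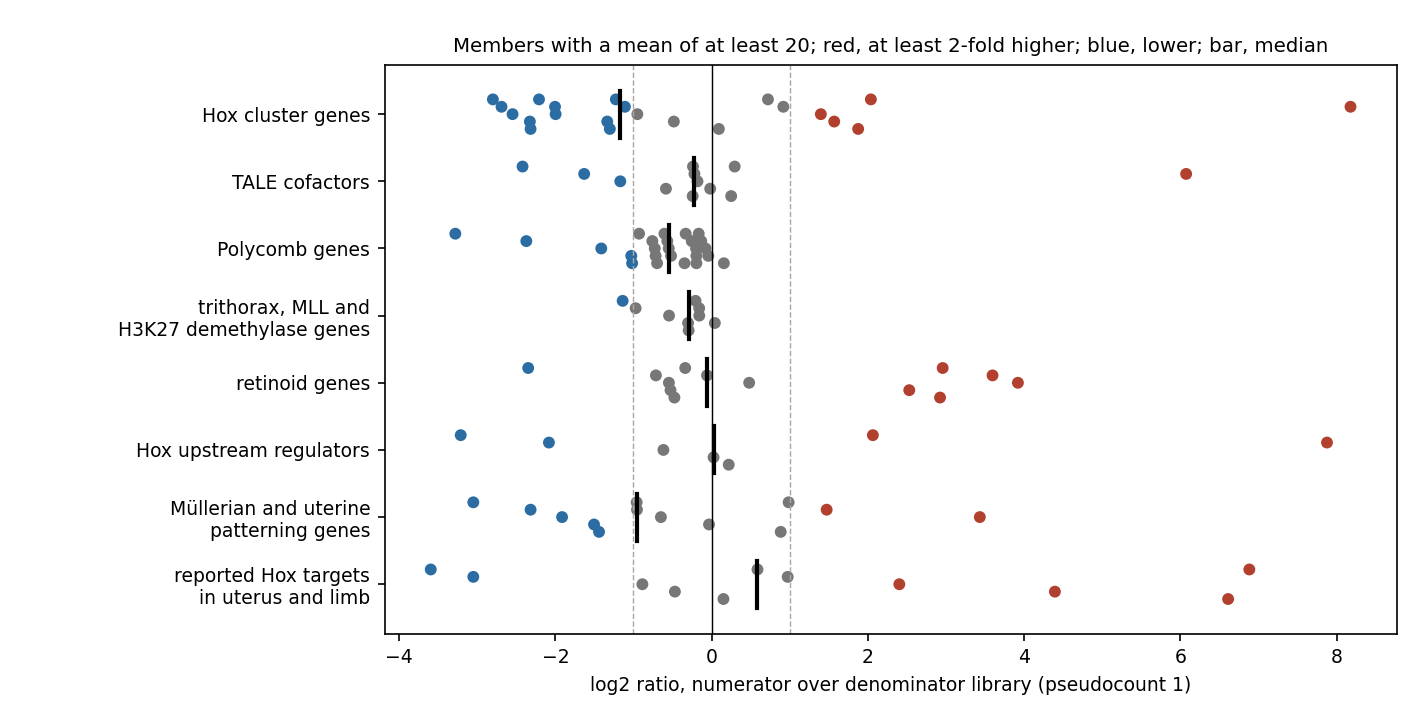
Log2 ratio, numerator over denominator library, of each gene with a mean of at least 20 in the Hox clusters and in 7 related lists (red, at least 2-fold higher; blue, at least 2-fold lower; grey, within; black bar, median). The medians lie at -1.17 for the Hox genes and at -0.55 for Polycomb genes, whose points run to the left, while retinoid genes have 5 points to the right.

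The authors' own fold changes, which are shrunken towards 0, have the same sign as these ratios for all 22 Hox genes. In the authors' deposited table the Hox gene with the lowest p-value is Hoxa13, at 0.0882, and no Hox gene has an adjusted p-value under 0.999, which is also the lowest of any gene there. As examples of the shrinkage, the authors' deposited table gives Hoxc11 a log2 fold change of 1.52, and Hoxb5 one of -0.97.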

How the data were processed

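The single file used was the authors' deposited table of 17327 genes. The authors worked with DESeq2, featureCounts, TopHat, SAMtools and FastQC on builds rn4 and rn5, per the submitters' processing notes. The sources used here give no version, setting or strand use. Per the labels' protocols, reads were single and 36 bp long, so homeobox stretches shared between paralogues may limit where some reads can be placed. Per the file headers, the deposited mean is a signal, read counts over size factors averaged over both libraries. The authors' fold change, shrunken towards 0, and the error of it are deposited as log2 values, the deposited statistic is a score, and the deposited p-values are the authors' own. A date stands in place of the symbol in 26 rows (0.150%).

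The planned values per library are not in the table, so reads were recovered from the mean. It is a sum of whole reads of each library times a step, with size factors of 1.01 (numerator) and 0.991 (denominator) and a step ratio of 5322 to 5419. Of the 24 Hox genes with reads, 23 had 1 possible pair of reads. Hoxa11 had 3, and the one kept meets the deposited standard error within 7.24e-07 in a shrunken negative binomial fit; for the other 2 no such fit exists. The recovery was tested on simulated data whose standard errors came from this same fit. That test could therefore not check whether the authors' errors follow it. For log2 ratios 1 normalised read was added to each library, for folds none. A gene was called when its ratio was at least 2-fold, its mean at least 20 and the exact 95% Clopper-Pearson interval of the ratio excluded 1. Intervals and floors of 3 reads cover counting error only. Exon lengths are not used here, so levels are not compared between genes. Every Hox member is described. Of other lists the 4 genes with the largest ratios in size are named, and of flanking genes the 2 nearest on each side; some of the 4, and genes of the cell type lists, appear only in their counts. Some genes of these lists are not reported here by name. The members and lists were chosen with earlier results of these data known. Python 3.11.15, numpy 2.4.6, pandas 2.3.3 and scipy 1.17.1 were used.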

Additional observations from a re-analysis of the deposited data

How the results depend on the processing

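Hoxa2, Hoxb5, Hoxb9, Hoxc5, Hoxc8, Hoxc9, Hoxd3 and Hoxd4 did not pass a minimum mean of 100. Of the smaller set of Hox genes that did, 11 lay beyond 2-fold and 2 of these were higher. With a 4-fold limit and the minimum of 20 these counts were 10 and 2. By the authors' deposited fold change 12 lay beyond 2-fold, 3 higher and 9 lower. Of all genes, 23.0% were called with the minimum of 100, 12.7% with the 4-fold limit and, by the deposited fold change, 1177 higher and 1096 lower of 11212. Medians over 5 or 6 genes of a cluster were unstable. With no minimum the median became 0.0924 for Hox C and 0.12 for Hox D. The mean of members was 0.0643 for Hox A and 0.59 for Hox C, and the Hox A median was 1.57 without Hoxa9 and Hoxa11, an alternative added after seeing the data. The median of flanking genes was 0.0763 for Hox A, 0.23 for Hox B and 0.12 for Hox D with 10 genes on each side, and 0.00716 for Hox D with 40. The causes were not tested. The log2 ratios of all 22 genes kept their sign with a pseudocount of 5, the deposited fold change and total scaling, which moved them by at most 2.30, 6.65 and 0.00140; the 2 larger shifts were those of Hoxc11. No paired analysis was possible because each group has 1 library, and none could be left out. Few reads limit Hoxb5, Hoxc5, Hoxb9, Hoxd3 and Hoxc8 most.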
